A study of Mus musculus with 48 samples.

Results

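The step from 6 weeks of age (6W) to adulthood (6M) was followed in the hippocampus of wild-type (WT) male mice, which made up 8 of the 48 RNA-seq libraries of the series. The libraries were taken by their labels as hippocampus, genotype WT and age, and gave 4 libraries at 6W and 4 at 6M. The series asked how brain gene expression differs in mice without alkyladenine DNA glycosylase (Aag, a repair enzyme encoded by Mpg), and it sampled hippocampus and prefrontal cortex at postnatal day 5 (P5), 6W and 6M. For comparison served libraries of WT hippocampus at P5 (4) and of the Aag knockout (KO, Aag-/-) hippocampus at P5, 6W and 6M (4 each). Libraries of WT prefrontal cortex at P5, 6W and 6M (4 each) served as well. The KO prefrontal cortex libraries entered only the fits of that tissue and of all 48 libraries. The WT mice carry Aag, the labels name no treatment of any group, and all groups were male with 4 animals per time point. The 6M group spans 4 to 6 months of age, so the interval after 6W was not the same in every animal. Strain, and whether a number shared by libraries marks a shared animal, litter or day, are not given in the sources used here.

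In the mouse forebrain, oligodendrocyte precursors leave the cell cycle, pass through a short premyelinating stage and then wrap axons with myelin. This runs at its height in the first postnatal weeks and goes on at a lower rate in the adult. The hippocampus also keeps dividing progenitors in the dentate gyrus, which give rise to neuroblasts and new granule neurons, and their number is known to fall with age.

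Total counts per library ranged from 21615824 to 29576938 at 6W and from 22347188 to 37979957 at 6M, and a floor of 3 counts came to 0.0806 to 0.15 CPM (the count scaled to the size of its library). Markers of the hippocampal subfields were present in every library, with a summed level of 1283 to 1656 CPM at 6W and 948 to 1367 CPM at 6M. Prox1, a transcription factor of dentate granule cells, had 231 ± 40.6 CPM at 6W and 175 ± 43.2 CPM at 6M (SD, n = 4). Replicate 1 stood apart at each age, with 31.6% of counts from mitochondrially encoded genes at 6W and 31.4% at 6M, against 15.7% to 21.1% in the other 6 libraries. Choroid plexus markers summed to 1273 CPM in replicate 4 at 6W and to 2956 and 2505 CPM in replicates 3 and 4 at 6M, against 75.6 to 395 CPM in the other WT libraries of these ages. Mpg stood at 5.08 ± 0.963 CPM at 6W and 5.61 ± 0.433 CPM at 6M (SD, n = 4).

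Between 6W and 6M, falls were called for 3 of 14 newly formed oligodendrocyte markers and 3 of 20 compact myelin genes. They were also called for 3 of 18 cell division genes and a neuroblast gene. A cytokine gene and a lipid transporter gene were among those called higher. Of 17786 genes tested with edgeR, 28 were called at an adjusted p under 0.05 (0.157%), 23 lower (0.129%) and 5 higher (0.0281%) at 6M. An unadjusted p under 0.05 was reached by 1867 genes (10.5%), 965 lower and 902 higher. All 28 called genes had 4 values at 6M on 1 side of the 4 at 6W, which was also the case for 5.45% of all tested genes (2.7% below, 2.75% above). The falls ranged from -0.40 (Serinc5) to -2.16 (Igfbpl1) on the log2 scale, with a median of -0.90, where the median of all tested genes was -0.002. In bulk tissue, fewer cells of a type and less RNA per cell cannot be told apart.

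The calls rested on the fit of all 24 hippocampus libraries, which share an estimate of the spread. In a fit of only the 8 WT libraries compared, 2 genes were called, Il33 and Abca8a, and the other 26 were not. The split by direction moved with the tool and the filter: DESeq2 called 28 higher and 62 lower, and edgeR without a filter on low counts called 194 higher and 147 lower. A block for the replicate number gave 55 calls, 11 higher and 44 lower, with all 28 among them. The 23 falls also leaned on single libraries: replicate 1 was the highest of the 6W libraries in 22 of them, and replicate 4 was the lowest of the 6M libraries in 13. Without replicate 1 of 6W 10 genes were called, without replicate 3 of 6W 16, without replicate 2 of 6M 16, without replicate 4 of 6M 9, and without replicate 2 of 6W 50. Leaving out both libraries numbered 1 left 9 calls, 8 of them among the 28, and leaving out the 3 libraries with choroid plexus RNA left 4, all among the 28. Totals did not always hold the same genes. The 16 calls without replicate 2 of 6M held 14 of the 28. Without replicate 1 of 6M 27 genes were called, 19 of them among the 28, and without replicate 4 of 6W 39, 21 of them among the 28. Il33, Abca8a, Mki67, Igfbpl1, 9630013A20Rik, Gm42756, Mpzl1, Rnf122 and Tspan2 were called with any single WT library left out. The direction of each of the 28 genes was the same under all 19 alternatives.

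**Figure D1:**
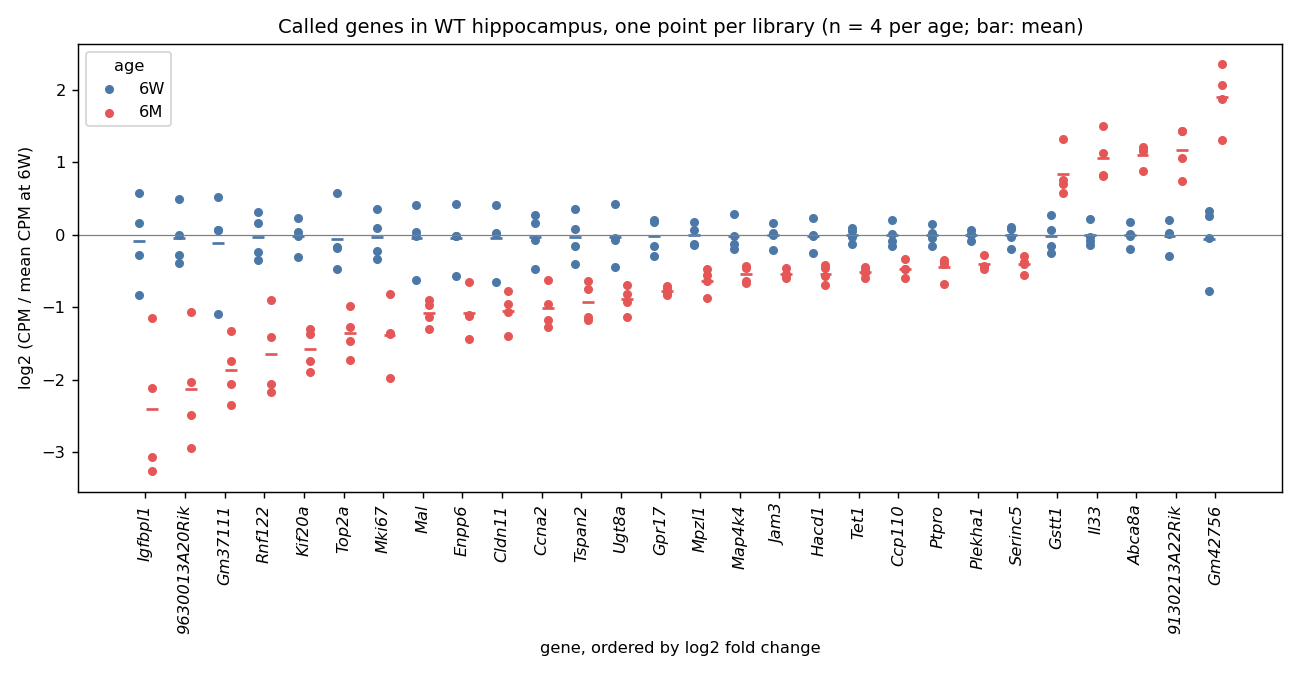
Each point is a library of WT hippocampus (4 at 6W, 4 at 6M) for a called gene, as log2 of its CPM over the mean CPM at 6W, and bars are means. Genes run from the largest fall (Igfbpl1, -2.16) to the largest rise (Gm42756, 1.96), and the points of the 2 ages do not overlap for any of the 28 genes.

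RefSeq promoter windows on GRCm38.p6 (250 bases before to 50 after the annotated start) were matched for 18 of the 28 called genes. Shown here are the windows of both genes called under every alternative, Il33 and Abca8a, and of a newly formed oligodendrocyte gene and a myelin gene that fell, Enpp6 and Mal. The motifs searched, on both strands, were the SOX cores ACAAAG and AACAAT, the E-box CACGTG, the cyclic AMP response element TGACGTCA and the TATA box TATAAA. Capitals mark a match.
Il33 promoter, chr19:29924863-29925162, plus strand: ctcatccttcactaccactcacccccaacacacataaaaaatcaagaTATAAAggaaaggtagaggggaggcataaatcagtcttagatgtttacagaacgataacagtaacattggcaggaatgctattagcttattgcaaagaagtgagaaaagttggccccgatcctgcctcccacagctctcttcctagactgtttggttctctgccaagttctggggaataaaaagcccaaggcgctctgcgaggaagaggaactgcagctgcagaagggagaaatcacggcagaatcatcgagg
Abca8a promoter, chr11:110095888-110096187, minus strand: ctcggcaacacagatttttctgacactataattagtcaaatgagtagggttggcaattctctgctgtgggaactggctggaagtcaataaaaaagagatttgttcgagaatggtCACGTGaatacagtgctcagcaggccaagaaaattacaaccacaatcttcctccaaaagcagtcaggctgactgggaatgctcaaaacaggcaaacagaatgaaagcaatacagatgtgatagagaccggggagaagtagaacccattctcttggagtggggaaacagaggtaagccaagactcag
Enpp6 promoter, chr8:46986637-46986936, plus strand: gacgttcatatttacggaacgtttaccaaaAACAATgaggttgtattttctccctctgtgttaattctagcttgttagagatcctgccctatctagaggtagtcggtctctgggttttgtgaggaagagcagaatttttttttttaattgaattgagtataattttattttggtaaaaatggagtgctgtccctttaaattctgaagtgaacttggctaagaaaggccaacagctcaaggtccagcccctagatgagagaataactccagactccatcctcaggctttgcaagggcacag
Mal promoter, chr2:127656646-127656945, minus strand: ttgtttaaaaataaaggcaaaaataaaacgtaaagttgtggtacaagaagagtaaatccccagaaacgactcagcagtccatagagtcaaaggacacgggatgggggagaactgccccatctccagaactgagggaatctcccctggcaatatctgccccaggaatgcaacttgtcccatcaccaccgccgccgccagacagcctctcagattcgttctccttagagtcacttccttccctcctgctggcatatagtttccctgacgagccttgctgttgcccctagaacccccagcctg
In Il33 the match is TATAAA, 203 bases before the start. Abca8a holds CACGTG 136 bases before the start, Enpp6 holds AACAAT 220 bases before it, and none of the motifs occurs in the Mal window. Over the 18 windows, TATAAA was found in 2 (Il33 and Ccp110), AACAAT in 2 (Enpp6 and Top2a), CACGTG in 1 (Abca8a), ACAAAG in 1 (Gstt1) and TGACGTCA in 0. Of all 27025 promoter windows of this length, 14.2% hold TATAAA, 10.9% AACAAT, 7.24% CACGTG, 18.7% ACAAAG and 1.88% TGACGTCA. These are matches of letters and do not show that a factor binds.

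Along the oligodendrocyte lineage, the genes that fell belonged to the newly formed stage and to myelin, and the precursor markers other than Gpr17 were not called. Of 14 tested markers of newly formed oligodendrocytes, 3 fell and 0 rose, and 13 had a negative log2 fold change, with a median of -0.33. DESeq2 called 4 of them lower, the same 3 and Cnksr3. The share of all tested genes called lower was 0.129%.

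9630013A20Rik (ENSMUSG00000115529, chr14:84458639-84476424 on the minus strand of GRCm38), a long noncoding RNA of newly formed oligodendrocytes, fell most on this list. Its 4 libraries had 17.1, 10.04, 12.1 and 9.28 CPM at 6W and 5.82, 1.57, 2.96 and 2.16 CPM at 6M. The lowest 6W library lay above the highest 6M library, and replicate 1 was the highest at both ages. The means were 12.1 ± 3.54 and 3.13 ± 1.88 CPM (SD, n = 4), for a change of -1.96 in log2 units (SE 0.30, edgeR adjusted p 0.00128). The gene lies opposite to Pcdh17, and the strand setting of the counting is not given in the sources used here.

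Gpr17, a receptor of precursors committed to differentiate that is lost as they mature, stood at 48.9, 38.2, 34.9 and 48.3 CPM in the 6W libraries and at 24.0, 26.1, 25.5 and 24.4 CPM in the 6M libraries. The 6M values lay close together and all were below the 6W values. The fall was -0.77 in log2 units (SE 0.14), with an edgeR adjusted p of 0.0112 that rose to 0.0748 at most with single WT libraries left out (replicate 1 of 6W or replicate 4 of 6M). Enpp6, a choline phosphodiesterase of newly formed oligodendrocytes whose promoter is shown above, had 29.8, 14.9, 21.8 and 21.9 CPM at 6W and 10.2, 10.3, 14.1 and 8.19 CPM at 6M. The gap between the ages was narrow, since replicate 2 of 6W and replicate 3 of 6M differed by less than the SD of either group. Its log2 fold change was -1.04 (SE 0.20), with an edgeR adjusted p of 0.0208, and the call was lost without any of 5 libraries (replicates 1 and 3 of 6W, replicates 1, 2 and 4 of 6M), to 0.146 at most.

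The other members of this list were not called by edgeR. Cnksr3, chosen after its values were seen, was at -0.81 in log2 units with no overlap between the ages and an edgeR adjusted p of 0.0614. Bcas1, a marker of premyelinating cells, was at 173 ± 82.5 CPM at 6W and 138 ± 30.3 CPM at 6M, and Fyn, a kinase that promotes myelination, was at 141 ± 6.58 and 123 ± 9.75 CPM (SD, n = 4). Itpr2, an intracellular calcium channel, was at 35.7 ± 2.64 and 30.3 ± 1.18 CPM. The edgeR adjusted p was 0.679 for Bcas1, 0.359 for Fyn and 0.437 for Itpr2.

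The precursor list held 13 tested genes, of which 1 fell (Gpr17, which is on both lists) and 0 rose, with a median log2 fold change of 0.03. Of all tested genes 0.129% were called lower. At an unadjusted p under 0.05, 2 of the 13 were lower and 1 was higher, against 5.43% and 5.07% of all tested genes. Pdgfra, the growth factor receptor that defines these cells, had 51.7, 53.4, 42.9 and 50.6 CPM at 6W and 56.1, 40.5, 41.1 and 45.1 CPM at 6M, so the ages overlapped. Its log2 fold change was -0.12 (SE 0.10), with an edgeR adjusted p of 0.692. Ptprz1, a receptor phosphatase, was at -0.01 (SE 0.10), Cspg5, a membrane proteoglycan, at 0.13 (SE 0.13) and Lhfpl3, a tetraspan protein, at 0.08 (SE 0.15). The summed level of the list was 706 to 881 CPM at 6W and 704 to 916 CPM at 6M, with the highest value of each age in replicate 1.

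Of 20 tested genes of compact myelin and its partners, 3 fell (Mal, Cldn11 and Tspan2) and 0 rose, where 0.129% of all tested genes were called lower. A negative log2 fold change was found for 18 of the 20, with a median of -0.47, and 11 were lower at an unadjusted p under 0.05, a share that was 5.43% over all tested genes.

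Mal (ENSMUSG00000027375, chr2:127633226-127656695, minus strand), a proteolipid of compact myelin, had 397, 194, 304 and 293 CPM in the 6W libraries and 151, 135, 160 and 120 CPM in the 6M libraries. Replicate 2 was the lowest library of 6W and still lay above every 6M library. The change was -1.07 in log2 units (SE 0.18, edgeR adjusted p 0.00559), and 0.0561 without replicate 4 of 6M. Tspan2 (ENSMUSG00000027858, chr3:102734529-102801513, plus strand), a tetraspanin of oligodendrocytes, had 368, 217, 303 and 257 CPM at 6W and 171, 131, 183 and 127 CPM at 6M. The groups did not overlap, and again replicate 1 was the highest of 6W and replicate 2 the lowest. The fall of Tspan2 was -0.90 (SE 0.15), with an edgeR adjusted p of 0.00332, and 0.0411 at most with single WT libraries left out.

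Cldn11 (ENSMUSG00000037625, chr3:31149920-31164324, plus strand), the claudin of the tight junctions between myelin layers, had 246, 118, 187 and 186 CPM at 6W and 94.7, 87.6, 108 and 69.6 CPM at 6M. The gap between replicate 2 of 6W and replicate 3 of 6M was small beside the spread at 6W. The change was -1.03 in log2 units (SE 0.20, edgeR adjusted p 0.0199) that rose to 0.141 at most with single WT libraries left out (replicates 1 and 3 of 6W, replicates 2 and 4 of 6M).

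Mbp and Mobp, abundant myelin transcripts, had lower means at 6M without a call by edgeR. Gjc3, a connexin of oligodendrocytes, was not called by edgeR and was called lower by DESeq2. Mbp, the basic protein that compacts the membrane, was at 2036 ± 944 and 1378 ± 321 CPM (SD, n = 4), with overlapping groups and an edgeR adjusted p of 0.414. Mobp, another basic protein of myelin, was at 1003 ± 433 and 535 ± 116 CPM, with an edgeR adjusted p of 0.337. Car2, a carbonic anhydrase found in oligodendrocytes, was at 225 ± 51.5 and 258 ± 32.8 CPM. Mog, a glycoprotein of the outer myelin surface that was chosen after its values were seen, had 153, 81.4, 107 and 113 CPM at 6W and 73.3, 53.4, 65.9 and 48.3 CPM at 6M. Those groups did not overlap, and the log2 fold change was -0.91 with an edgeR adjusted p of 0.0614.

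The summed level of the myelin list did overlap between the ages. It was 11840, 5412, 7887 and 7500 CPM in the 6W libraries and 6070, 4639, 5621 and 4050 CPM in the 6M libraries, so that replicate 2 of 6W lay below replicates 1 and 3 of 6M. The newly formed list gave 637, 385, 459 and 454 CPM at 6W and 422, 347, 411 and 338 CPM at 6M, with the same overlap of replicate 2. What part the content of white matter in each dissection had in these values was not tested.

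**Figure D2:**
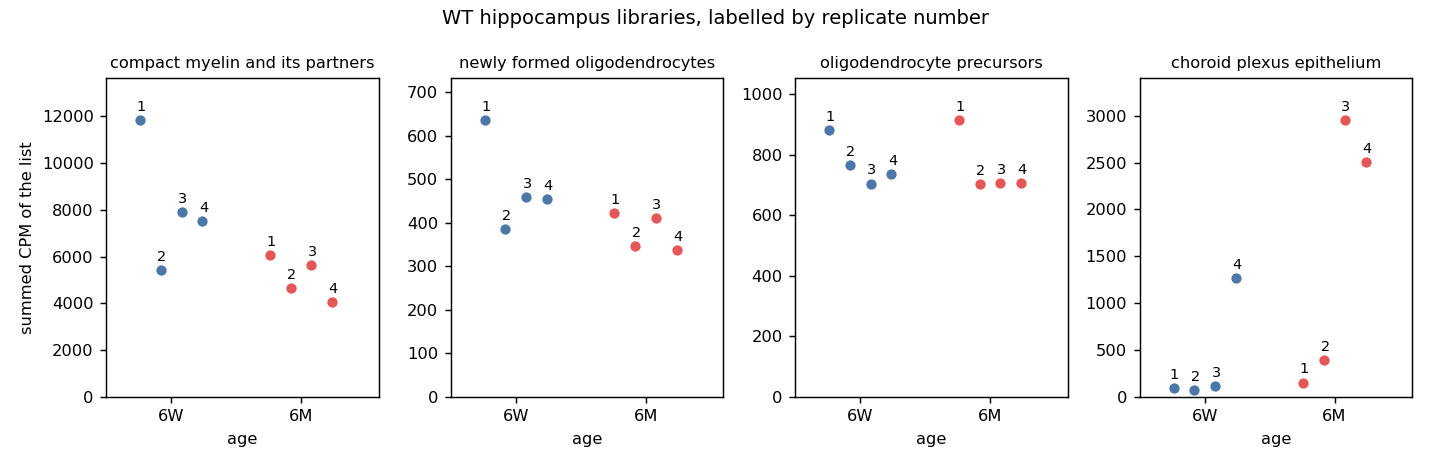
Summed CPM of 4 gene lists in the WT hippocampus libraries of 6W and 6M, with points numbered by replicate and each axis starting at 0. Myelin sums reach from 5412 to 11840 CPM at 6W and from 4050 to 6070 CPM at 6M, precursor sums cover about the same range at both ages, and the choroid plexus sum is high in replicate 4 of 6W and replicates 3 and 4 of 6M.

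Among 12 tested genes of myelin lipid synthesis 1 fell, Ugt8a, and 0 rose, with a list median of -0.19 (0.129% of all tested genes were called lower). At an unadjusted p under 0.05, 5 of the 12 were lower and 0 higher. Ugt8a (ENSMUSG00000032854, chr3:125865271-125938619, minus strand) makes galactocerebroside, a main lipid of myelin. It had 202, 110, 144 and 146 CPM at 6W and 93.1, 79.2, 85.7 and 68.8 CPM at 6M, without overlap and with replicate 2 again the lowest of 6W. The change was -0.88 in log2 units (SE 0.17, edgeR adjusted p 0.0197) that rose to 0.133 at most with single WT libraries left out (replicate 1 of 6W, replicates 2 and 4 of 6M). Scd2, a fatty acid desaturase, was level at 1160 ± 144 and 1155 ± 100 CPM (SD, n = 4), and Scd1 and Degs1, which desaturate fatty acids and ceramides, had log2 fold changes of -0.11 and -0.02. Enpp2, which is also abundant in choroid plexus, was at 375 ± 257 and 611 ± 388 CPM. Of 23 tested genes of cholesterol synthesis, edgeR and DESeq2 each called 0, and 2 were lower and 0 higher at an unadjusted p under 0.05 in edgeR (5.43% and 5.07% of all tested genes were), with a median of -0.04. Hmgcs1, an early enzyme of that pathway, was at 153 ± 6.26 and 137 ± 15.9 CPM.

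No regulator or cytoskeletal gene of mature oligodendrocytes was called among 20 tested by edgeR (7 lower and 1 higher at an unadjusted p under 0.05, against 5.43% and 5.07% of all tested genes, median -0.13), and DESeq2 called 3 lower, Zfp488, Adamts4 and Erbb3. Tppp, which stabilises microtubules, was at 341 ± 11.7 CPM at 6W and 303 ± 12.4 CPM at 6M, and Apod, a lipid carrier, at 179 ± 34.2 and 227 ± 45.9 CPM (SD, n = 4). Sept4, a septin of the myelin scaffold, and Qdpr, a pteridine reductase, had log2 fold changes of -0.04 and -0.06. Zfp488, a transcription factor of oligodendrocyte differentiation, had the smallest p among genes lower at 6M that were not called. It had 8.92, 6.46, 8.46 and 7.68 CPM at 6W and 6.57, 4.44, 4.68 and 4.41 CPM at 6M, where replicate 1 of 6M overlapped the younger group, and its edgeR adjusted p was 0.052.

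**Figure D3:**
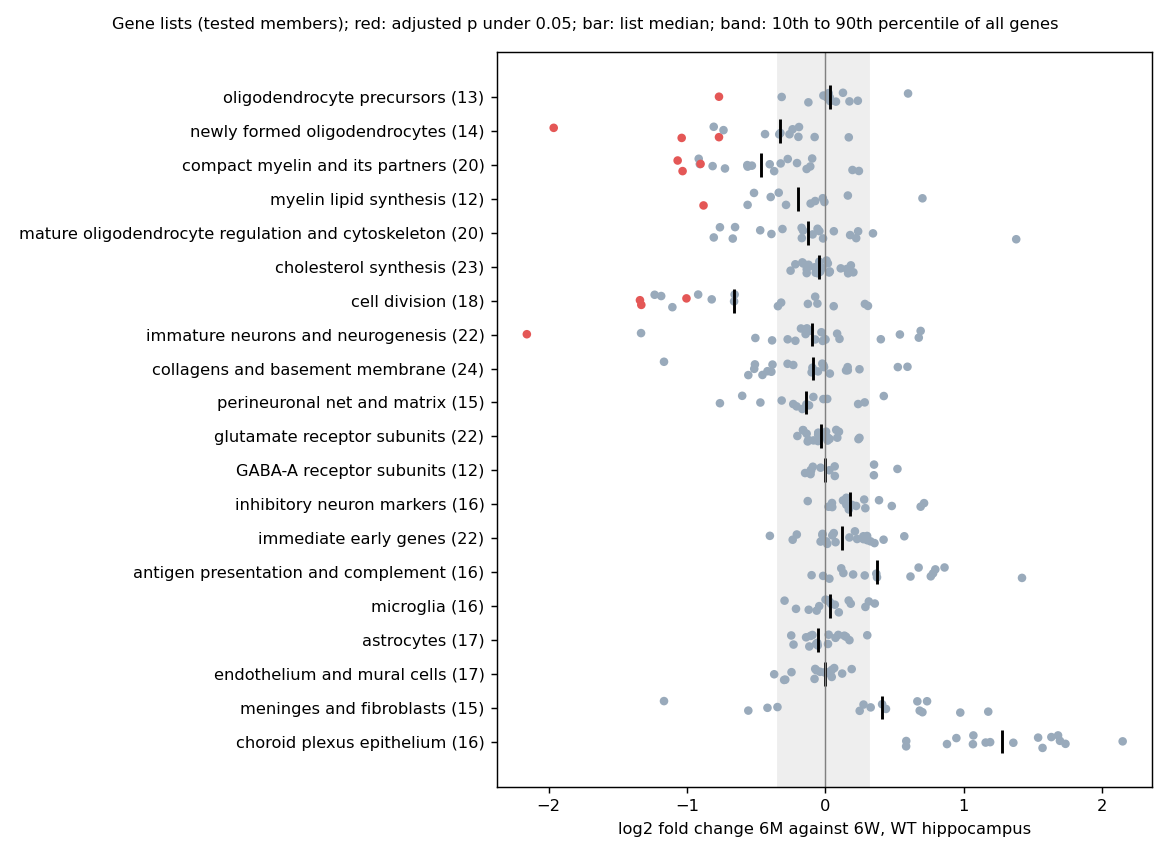
Log2 fold change (6M against 6W) of each tested member of the gene lists in WT hippocampus, with members called by edgeR in red, a bar at the list median and a band from the 10th to the 90th percentile of all tested genes (-0.34 to 0.32). Medians of the cell division (-0.66) and compact myelin (-0.47) lists lie below the band, and those of choroid plexus epithelium (1.28), meninges and fibroblasts (0.41) and antigen presentation and complement (0.37) lie above it with 0 members called. The band describes single genes and is no test of a list median.

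Of the genes of dividing cells, Mki67, Top2a and Ccna2 were lower at 6M, at levels of a few CPM. Of 18 tested cell division genes, 3 fell and 0 rose, 15 had a negative log2 fold change, and 9 were lower and 1 higher at an unadjusted p under 0.05, with a list median of -0.66. Over all tested genes, 0.129% were called lower, and 5.43% were lower and 5.07% higher at an unadjusted p under 0.05.

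Mki67 (ENSMUSG00000031004, chr7:135689784-135716361, minus strand), which encodes the proliferation antigen Ki-67, had 8.87, 5.90, 5.46 and 7.41 CPM in the 6W libraries and 3.91, 2.69, 2.71 and 1.76 CPM in the 6M libraries. Every 6M value was below every 6W value, and the counts behind them were 113 to 217 at 6W and 39 to 101 at 6M. The change was -1.33 in log2 units (SE 0.17, edgeR adjusted p 0.000152). The call held with any single WT library left out and was lost in the fit of the 8 libraries (0.113) and without the 3 libraries with choroid plexus RNA (0.106).

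Top2a, the topoisomerase that untangles replicated chromosomes, had 4.01, 2.37, 1.93 and 2.39 CPM at 6W and 1.35, 1.11, 0.968 and 0.81 CPM at 6M. Its fall was -1.34 (SE 0.25), with an edgeR adjusted p of 0.0189 that rose to 0.113 at most with single WT libraries left out (replicate 1 of 6W, replicates 2, 3 and 4 of 6M). Ccna2, a cyclin of S phase and mitosis, had 2.82, 2.63, 1.69 and 2.22 CPM at 6W and 1.20, 1.53, 0.968 and 1.04 CPM at 6M. The Ccna2 groups nearly touched, at 1.69 and 1.53 CPM, and its edgeR adjusted p of 0.0201 rose to 0.123 at most (without replicates 1 or 2 of 6W, or 3 or 4 of 6M). For Ccna2, 12% of its 31-base words occur in antisense in other genes, mainly Exosc9, so part of its counts is uncertain.

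Kif20a, a mitotic kinesin that is on no list, fell by 1.49 in log2 units (SE 0.29, edgeR adjusted p 0.0208). It had 1.09, 0.948, 0.918 and 0.751 CPM at 6W and 0.251, 0.278, 0.376 and 0.36 CPM at 6M, from 19 to 22 counts and from 5 to 14 counts. The separation was complete but rested on few counts, 26.7% of the 31-base words of Kif20a lie in antisense to Cdc23, and the call was lost without any of 5 WT libraries (replicates 1 and 3 of 6W, replicates 1, 2 and 4 of 6M). The most abundant members of the division list were not called. Ccnd2 and Ccnd1, the G1 cyclins that are also used outside the cycle, were at 72.4 ± 8.17 and 39.4 ± 3.02 CPM at 6W and at 69.7 ± 7.86 and 36.1 ± 2.901 CPM at 6M (SD, n = 4). Pcna, the replication clamp, and Mcm2, a replicative helicase subunit, had log2 fold changes of 0.06 and 0.31.

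Igfbpl1 (ENSMUSG00000035551, chr4:45809468-45826923, minus strand), an insulin-like growth factor binding protein of neuroblasts, fell most of all 28 genes. It had 7.28, 2.76, 4.06 and 5.50 CPM in the 6W libraries (64 to 161 counts) and 2.21, 0.509, 1.13 and 0.585 CPM in the 6M libraries (11 to 44 counts). Replicate 1 was the highest and replicate 2 the lowest at each age, and the lowest 6W value lay above the highest 6M value. The change was -2.16 in log2 units (SE 0.31, edgeR adjusted p 0.000948) that was 0.00928 at most with single WT libraries left out and 0.172 without the 3 libraries with choroid plexus RNA. It was the 1 called gene among 22 tested markers of immature neurons and neurogenesis, which had a median of -0.09 (0.129% of all tested genes were called lower). At an unadjusted p under 0.05, 4 of the 22 were lower and 2 higher, against 5.43% and 5.07% of all tested genes.

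The other markers of immature neurons were not called. Tubb2b and Tubb3, tubulins of growing neurites, were at 81.4 ± 12.6 and 98.9 ± 13.0 CPM at 6W and at 80.5 ± 29.5 and 106 ± 16.7 CPM at 6M (SD, n = 4). Tbr1, a transcription factor of glutamatergic neurons, was at 143 ± 14.3 and 136 ± 21.5 CPM, and Nnat, a membrane proteolipid of young neurons, was at 53.0 ± 15.4 and 84.9 ± 8.92 CPM with an edgeR adjusted p of 0.233. All 4 of the 6M values of Nnat lay above all 4 of its 6W values, as for 2.75% of all tested genes. Draxin and Sox11, chosen after their values were seen, were at -1.33 and -0.51 in log2 units with edgeR adjusted p-values of 0.126 and 0.224. For each of them replicate 1 of 6M was the highest of its group, at 1.45 CPM for Draxin and 22.8 CPM for Sox11, and the 6W values were 1.08 to 2.03 CPM and 19.1 to 25.6 CPM.

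The genes called higher at 6M numbered 5. Il33 (ENSMUSG00000024810, chr19:29925114-29960718, plus strand) encodes a nuclear cytokine of the interleukin-1 family that glial cells of the brain make. It had 54.8, 46.3, 42.9 and 44.6 CPM at 6W and 133, 83.9, 103 and 82.9 CPM at 6M. Replicate 1 was the highest at both ages, and the lowest 6M library lay well above the highest 6W library. Il33 rose from 47.1 ± 5.29 to 101 ± 23.6 CPM (SD, n = 4), a 2.14-fold higher mean and a log2 fold change of 1.10 (SE 0.12, edgeR adjusted p 3.65e-05) that was 0.0459 in the fit of the 8 libraries. None of its 31-base words occurs in another gene.

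Abca8a (ENSMUSG00000041828, chr11:110025634-110095978, minus strand), a lipid transporter of the ATP-binding cassette family, had 7.73, 6.68, 7.54 and 8.60 CPM at 6W and 17.0, 14.1, 17.7 and 17.2 CPM at 6M. The libraries of an age lay close together, and the mean was 2.16-fold higher at 6M. The change was 1.11 in log2 units (SE 0.13, edgeR adjusted p 5.06e-05), and 0.00885 in the fit of the 8 libraries. Its neighbour Abca8b holds most of the 3.11% of Abca8a words of 31 bases that recur elsewhere.

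Gm42756 (ENSMUSG00000104674, chr9:109537100-109552780, plus strand), a noncoding RNA annotated as antisense, had 1.19, 1.25, 0.966 and 0.58 CPM at 6W (17 to 29 counts) and 4.16, 5.09, 3.66 and 2.48 CPM at 6M (55 to 136 counts). It rose by a log2 fold change of 1.96 (SE 0.29), the largest rise of the 5, with an edgeR adjusted p of 0.00128. The gene lies opposite to Fbxw15, and 9.13% of its 31-base words recur in antisense elsewhere, so the counts cannot be assigned to it alone.

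Gstt1 and 9130213A22Rik were called near the threshold. Gstt1, a glutathione transferase of the theta class, had 4.16, 5.17, 4.45 and 5.97 CPM at 6W and 12.3, 7.36, 8.06 and 8.37 CPM at 6M. Replicate 1 of 6M was far above the other 3, which still lay above the 6W group. The change was 0.86 in log2 units (SE 0.17, edgeR adjusted p 0.0197), and the call was lost without replicates 1 or 3 of 6W or replicates 1 or 4 of 6M, to 0.105 at most. 9130213A22Rik, a gene without a known role that overlaps Hes7 on the opposite strand, had 0.892, 0.776, 0.628 and 0.785 CPM at 6W and 1.604, 2.08, 1.29 and 2.07 CPM at 6M, from 13 to 23 and from 32 to 48 counts. Its edgeR adjusted p of 0.0406 was lost without any of 7 WT libraries (all but replicate 3 of 6M), to 0.173 at most.

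The remaining falls were of genes on none of the lists. Rnf122, a RING-type ubiquitin ligase, had 9.86, 6.68, 6.23 and 8.84 CPM at 6W and 1.75, 2.96, 4.22 and 1.89 CPM at 6M, a log2 fold change of -1.51 (SE 0.24, edgeR adjusted p 0.00179). Mpzl1, a cell surface glycoprotein of the immunoglobulin family related to myelin protein zero, had 23.3, 21.4, 18.6 and 18.8 CPM at 6W and 14.8, 11.2, 13.1 and 14.0 CPM at 6M. Its fall was -0.62 (SE 0.10), with an edgeR adjusted p of 0.00179, and in both genes the ages were apart in all 8 libraries. Gm37111, a transcript model that the annotation holds as provisional, fell from 5.03 ± 2.003 to 1.43 ± 0.44 CPM (SD, n = 4), and 13.9% of its 31-base words occur in antisense in other genes. Its edgeR adjusted p of 0.0189 rose to 0.113 at most with single WT libraries left out (replicates 1 and 3 of 6W, replicates 2 and 4 of 6M).

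Another 8 genes fell by 0.40 to 0.54 on the log2 scale. Map4k4, a kinase of the stress-activated cascade, went from 66.4 ± 10.2 to 45.6 ± 3.94 CPM, and Tet1, which oxidises 5-methylcytosine in DNA, from 28.5 ± 1.88 to 19.97 ± 0.938 CPM (SD, n = 4). Plekha1, a phosphoinositide-binding adaptor, went from 96.6 ± 4.23 to 73.0 ± 4.64 CPM, and Serinc5, a multipass membrane protein, from 68.7 ± 6.45 to 52.0 ± 3.88 CPM. Ptpro, a receptor tyrosine phosphatase, went from 54.8 ± 4.81 to 40.3 ± 4.02 CPM, and Ccp110, a protein that caps centrioles, from 98.3 ± 11.03 to 71.1 ± 5.08 CPM. Hacd1, an enzyme of very long chain fatty acid elongation, went from 11.7 ± 1.63 to 8.12 ± 0.698 CPM, and Jam3, a junctional adhesion molecule, from 26.7 ± 2.76 to 18.4 ± 0.795 CPM. The last pair holds shared sequence: other genes (mainly Gm11451) contain 33.1% of the 31-base words of Hacd1, and 32.2% of those of Jam3 lie in antisense to Gm48796, so their counts are uncertain. The edgeR adjusted p of the 8 lay between 0.0119 (Map4k4) and 0.0459 (Ccp110), and each call was lost without replicate 1 of 6W, without replicate 4 of 6M and without 1 to 5 of the other WT libraries, to 0.232 at most (Ccp110). These others were replicate 2 of 6M for Map4k4, replicate 3 of each age for Hacd1, and replicate 4 of 6W and replicate 2 of 6M for Tet1. For Plekha1, Serinc5, Jam3, Ccp110 and Ptpro they were replicates 3 and 4 of 6W and 1 and 2 of 6M, joined by replicate 3 of 6M for Ptpro.

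The same step was measured in 8 KO hippocampus libraries. The WT contrast compares none of them, but they share in the estimate of the spread behind the 28 WT calls. Same-numbered WT and KO libraries also deviated together in part. The correlations for numbers 1 to 4 were 0.67, 0.115, 0.368 and 0.207 at 6W and 0.283, -0.0139, 0.377 and 0.0226 at 6M. The 2 sets of calls are therefore not fully separate. In KO edgeR called 80 of 17786 genes (0.45%), 10 higher and 70 lower at 6M, and 6.76% had an unadjusted p under 0.05. All 28 genes called in WT had the same direction in KO, and 20 were called there (17 lower, 3 higher). No overlap between the 2 ages was found in KO for 24 of the 28, against 3.87% of all tested genes. These values are from the fit without a block. With a block for the replicate number 89 genes were called in KO, 21 of the 28 among them. Igfbpl1 was at -2.39 (SE 0.33) in KO against -2.16 in WT, 9630013A20Rik at -2.34 (SE 0.31) against -1.96, Mki67 at -1.33 (SE 0.17) in each, Mal at -0.94 (SE 0.18) against -1.07 and Il33 at 0.96 (SE 0.12) against 1.10. The KO libraries of 9630013A20Rik had 16.2, 10.7, 9.07 and 9.32 CPM at 6W and 1.94, 2.18, 3.30 and 1.47 CPM at 6M, and those of Il33 had 44.2, 39.1, 46.6 and 49.3 CPM and 93.3, 87.2, 78.6 and 88.9 CPM. In both genotypes the ages were apart in these 2 genes.

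In KO the calls leaned on single libraries as well. They numbered 38 without replicate 1 of KO 6W, 51 without replicate 2 of KO 6W, 48 without replicate 2 of KO 6M and 48 without replicate 3 of KO 6M. Choroid plexus markers had a median log2 fold change of -0.90 in KO and 1.28 in WT, so this signal had opposite signs in the 2 genotypes. The myelin sum was 5474 to 11150 CPM at 6W and 3691 to 4744 CPM at 6M in KO, without overlap. Called lower in KO were 6 of the 20 myelin genes, 5 of the 14 newly formed oligodendrocyte markers, 5 of the 18 cell division genes and 6 of the 22 immature neuron markers, against 0.394% of all tested genes.

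Gstt1, Hacd1, Kif20a, Plekha1, Jam3, 9130213A22Rik, Ptpro and Ccp110 were not called in KO. Gstt1 was at 0.43 (SE 0.16) with an edgeR adjusted p of 0.482, Jam3 at -0.28 (0.52) and Ptpro at -0.39 (0.0601), and in the fit blocked by replicate number the edgeR adjusted p of Ptpro in KO was 0.0199. 9130213A22Rik was at 0.13 (SE 0.23), and its KO libraries overlapped, with 1.16, 1.98, 1.79 and 1.78 CPM at 6W and 2.03, 1.76, 1.42 and 2.15 CPM at 6M. The difference of the step between WT and KO was tested in the same edgeR fit and was called for 0 of 17786 genes. An unadjusted p under 0.05 was reached by 839 (4.72%), and DESeq2 called 0. Without a filter on low counts edgeR called 166 of 34362 genes for this difference, 0 of the 28 among them. Of the 28 genes, 9130213A22Rik had an unadjusted p under 0.05 for the difference, 0.00435, and the smallest adjusted p of the 28 was 0.972. These p-values do not show that the step was the same in both genotypes.

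**Figure D4:**
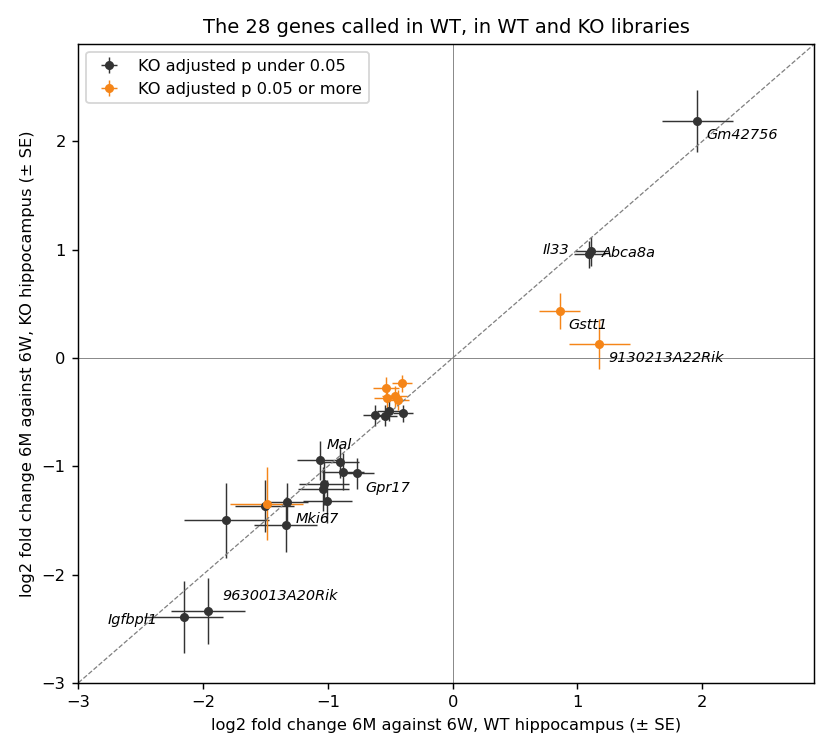
Log2 fold change from 6W to 6M in WT hippocampus (horizontal) against KO hippocampus (vertical) for the 28 genes called in WT, each with its SE, around a dashed line of equal change. All 28 lie on the same side of 0 in both genotypes, and 9130213A22Rik (1.18 in WT, 0.13 in KO) is the farthest below the line among the genes that rose.

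In WT prefrontal cortex the step gave 7 calls among 18144 genes (0.0386%). The 28 hippocampal genes were all tested there: 26 had the same direction, 17 of these at an unadjusted p under 0.05 (4.74% of all genes in either direction), and 3 were called. Abca8a was at 1.68 in prefrontal cortex with an edgeR adjusted p of 0.00345, from 2.78, 2.68, 1.99 and 2.36 CPM at 6W to 4.29, 10.9, 8.63 and 7.73 CPM at 6M. 9630013A20Rik was at -1.89 (0.00819), from 6.13, 8.23, 4.12 and 5.31 CPM to 1.23, 1.34, 1.76 and 2.10 CPM, and Gm42756 at 2.37 (0.00345). The call of 9630013A20Rik there was lost without replicate 2 of prefrontal 6W (edgeR adjusted p 0.0579), replicate 1 of 6M (0.0531) or replicate 2 of 6M (0.0507), at -1.69 to -1.81 in log2 units. The 7 prefrontal calls became 2 to 4 without any 1 of 6 of the 8 libraries, 5 or 7 without the other two (replicate 1 of 6W, replicate 4 of 6M), and 3 in the fit blocked by replicate number. In each of these genes the 2 ages were apart in the prefrontal libraries too.

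Other hippocampal calls were not called in prefrontal cortex. Gpr17 was at -0.87 there with an edgeR adjusted p of 0.107, Il33 at 0.95 (0.246), Mal at -0.72 (0.429) and Mki67 at -0.77 (0.488). Ccna2 was at -0.003 and Plekha1 at -0.001, and Serinc5 (0.04) and Ptpro (0.16) had the opposite sign. The difference of the step between the tissues, in an edgeR fit of all 48 libraries, was called for 0 of 18849 genes with 832 at an unadjusted p under 0.05 (4.41%). Of the 28 genes, 9 were under an unadjusted p of 0.05, led by Ccna2 at 0.000965, and the smallest adjusted p was 0.99995. DESeq2 was not run on that difference.

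Between P5 and 6W the same genes had moved in either direction. That comparison shares the 6W libraries with the later step, so the values are set side by side only. edgeR called 11024 of 17786 genes between P5 and 6W (62%), 5444 lower and 5580 higher at 6W. Of the 23 genes that fell by 6M, 11 had risen from P5 to 6W, 10 had fallen and 2, Rnf122 and Gpr17, were not called.

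Mal, Cldn11, Ugt8a, Enpp6 and 9630013A20Rik had their highest mean at 6W among the 3 ages. Mal was at 2.23 ± 0.678 CPM at P5, 297 ± 83.0 at 6W and 142 ± 17.5 at 6M (SD, n = 4), and Cldn11 was at 5.63 ± 0.86, 184 ± 52.3 and 89.98 ± 16.0 CPM. Ugt8a was at 9.39 ± 1.42, 150 ± 38.1 and 81.7 ± 10.3 CPM, Enpp6 at 4.85 ± 0.763, 22.1 ± 6.09 and 10.7 ± 2.45 CPM, and 9630013A20Rik at 1.21 ± 0.507, 12.1 ± 3.54 and 3.13 ± 1.88 CPM. Each of these had 6M values above all of its P5 values except 9630013A20Rik, whose lowest 6M library (1.57 CPM) lay below its highest P5 library (1.97 CPM). Gpr17 differed from them, with 34.7 ± 1.30 CPM at P5, 42.5 ± 7.07 at 6W and 25.0 ± 0.962 at 6M, so that its lowest mean was at 6M.

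The means of Mki67 and Igfbpl1 were lower at each later age. Mki67 was at 84.6 ± 8.89 CPM at P5, 6.91 ± 1.55 at 6W and 2.77 ± 0.883 at 6M, and Igfbpl1 at 75.5 ± 5.70, 4.90 ± 1.94 and 1.11 ± 0.783 CPM (SD, n = 4). Of the 5 genes that were higher at 6M, Il33 had risen before, from 3.44 ± 0.694 CPM at P5, and Gm42756 was at 0 to 1 counts in each P5 library. Abca8a had its lowest level at 6W, with 12.03 ± 1.10 CPM at P5, 7.64 ± 0.788 at 6W and 16.5 ± 1.65 at 6M.

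**Figure D5:**
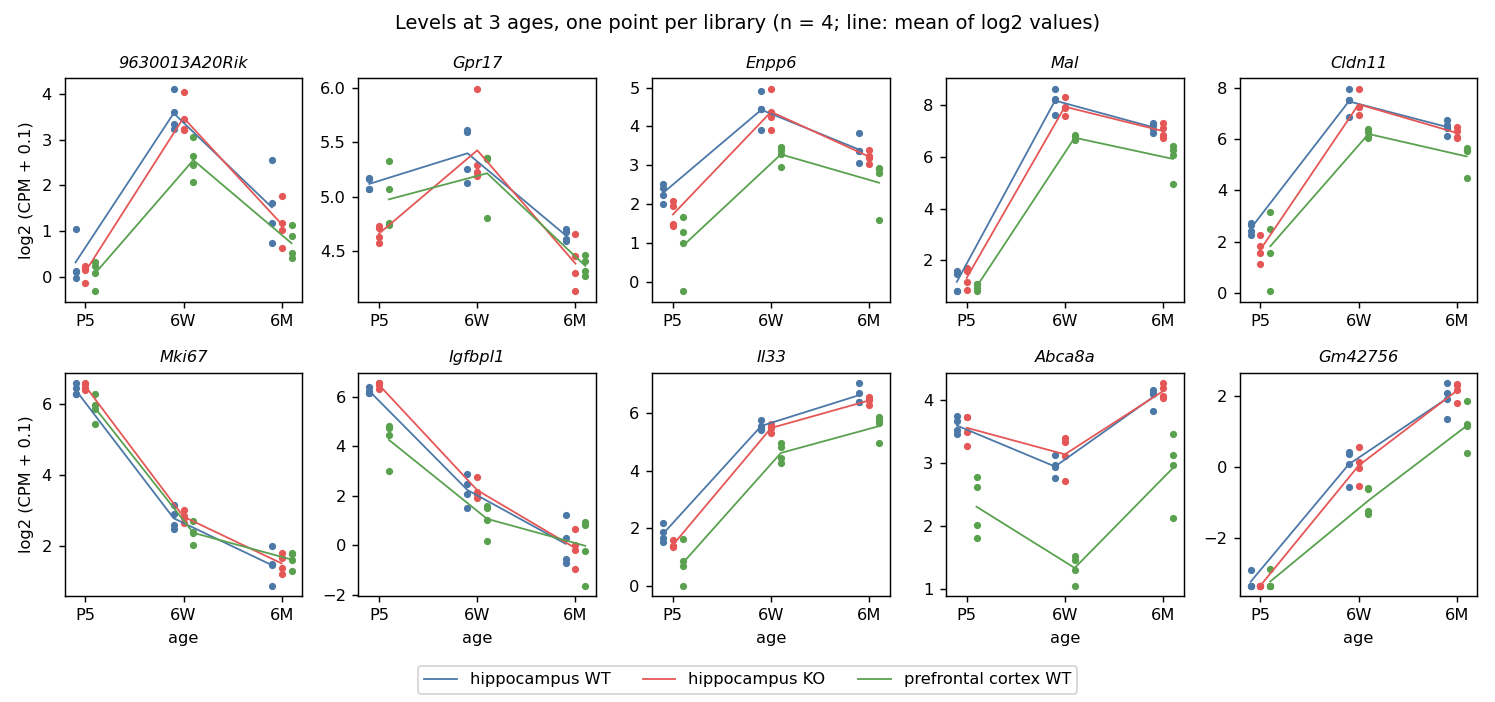
Levels of 10 called genes at P5, 6W and 6M as log2 (CPM + 0.1), 1 point per library (n = 4 per group) with lines through the means, for WT hippocampus, KO hippocampus and WT prefrontal cortex. Mal, Cldn11, Enpp6 and 9630013A20Rik are highest at 6W, Mki67 and Igfbpl1 descend across the 3 ages, and Il33 and Gm42756 ascend.

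edgeR called 0 genes on the glutamate receptor, GABA-A receptor and inhibitory neuron lists, and DESeq2 called 1, Htr3a. Of 22 glutamate receptor subunit genes, 0 had an unadjusted p under 0.05 and the log2 fold changes lay between -0.20 and 0.25. Grin2b and Grin2a, NMDA receptor subunits, were at -0.05 and -0.20, and Gria1 and Gria2, AMPA receptor subunits, at 0.01 and -0.13. Of 12 GABA-A receptor subunit genes, 3 were higher and 0 lower at an unadjusted p under 0.05, with a median of -0.002. Gabrb1 and Gabra5 were at 0.07 and 0.03. The 16 inhibitory neuron markers had a median of 0.18, 15 of them were positive, and 5 were higher at an unadjusted p under 0.05 (5.07% of all genes were). Gad1, which makes GABA, was at 320 ± 48.7 and 356 ± 17.6 CPM, Cck, a neuropeptide, at 296 ± 21.4 and 333 ± 34.3 CPM, and Sst, the peptide somatostatin, at 106 ± 14.8 and 147 ± 9.27 CPM (SD, n = 4), with an edgeR adjusted p of 0.349 for Sst. Htr3a, a serotonin-gated channel of interneurons chosen after its values were seen, was at 0.71 with an edgeR adjusted p of 0.0648.

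Extracellular matrix genes were not called by edgeR either, and DESeq2 called 1 lower, Adamts4. The 24 collagen and basement membrane genes had a median of -0.09, with 5 lower and 0 higher at an unadjusted p under 0.05, and the 15 tested perineuronal net genes a median of -0.14, with 4 lower and 1 higher. Of all tested genes, 5.43% were lower and 5.07% higher at that p. Sparc, a matrix glycoprotein, was at 356 ± 61.9 and 350 ± 76.5 CPM and Fn1, fibronectin, at 57.3 ± 9.53 and 56.9 ± 11.2 CPM. Tnr, a tenascin of the nets, was at 457 ± 33.2 and 407 ± 51.9 CPM, and Ncan, the proteoglycan neurocan, at 173 ± 6.08 and 158 ± 5.85 CPM (SD, n = 4).

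The microglial, astrocyte, interferon, antigen presentation, immediate early and clock lists held 0 genes called by edgeR or DESeq2. Medians were 0.04 for 16 microglial genes and -0.05 for 17 astrocyte genes, and 0 genes of either list had an unadjusted p under 0.05. Csf1r, the microglial growth factor receptor, was at 63.1 ± 13.5 and 60.5 ± 4.79 CPM, and Slc1a2, the astrocyte glutamate transporter, at 5532 ± 864 and 5138 ± 1082 CPM (SD, n = 4). The 20 interferon-stimulated genes had a median of -0.05, with 2 at an unadjusted p under 0.05. Antigen presentation and complement genes had a median of 0.37 over 16 genes, 14 of them positive, with 3 higher at an unadjusted p under 0.05 (5.07% of all tested genes were). C4b, a complement component, had 13.5, 9.96, 11.45 and 11.9 CPM at 6W and 22.8, 17.9, 19.6 and 19.2 CPM at 6M. Its groups did not overlap, and its edgeR adjusted p was 0.223. Of 22 immediate early genes (median 0.12), 2 were higher and 1 lower at an unadjusted p under 0.05 in edgeR. Of 19 clock genes (median 0.06), 4 were higher and 0 lower at that p. Over all tested genes these shares were 5.07% higher and 5.43% lower.

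All 16 choroid plexus markers had a positive log2 fold change, with a median of 1.28, and 0 were called by edgeR or DESeq2 or had an unadjusted p under 0.05 in edgeR. Ttr, the transthyretin gene that defines this epithelium, had 45.0, 16.9, 55.9 and 1063 CPM at 6W and 95.0, 300, 2640 and 2213 CPM at 6M. A single library carried the 6W mean and 2 libraries the 6M mean. Meningeal and fibroblast markers (15) had a median of 0.41, ependymal markers (11 tested) 0.26, endothelial and mural markers (17) -0.004 and blood markers (8 tested) -0.31. Markers of neighbouring regions had medians of 0.07 (14 of thalamus and habenula), 0.06 (15 of neocortical layers) and -0.05 (14 of striatum). Without the 3 libraries richest in choroid plexus markers, which left 3 libraries of 6W and 2 of 6M, Il33, Abca8a, Gm42756 and Rnf122 were called. All 28 genes kept their direction there, with log2 fold changes of -1.80 for Igfbpl1, -1.03 for Mki67 and -1.05 for Mal.

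The genes next in line, which were not called, were mostly of low level. Toward higher levels at 6M they were Gstt3 at 1.24, Cd209a at 2.61, Zc3hav1 at 0.68, C77080 at 0.85 and Dmrtc1a at 0.63 in log2 units, with edgeR adjusted p-values of 0.0611 to 0.0614. Gstt3, a theta class transferase next to Gstt1, had 1.88, 1.16, 1.21 and 1.33 CPM at 6W and 3.46, 3.66, 2.63 and 3.51 CPM at 6M, without overlap. Cd209a, a lectin of dendritic cells, had 1 to 6 counts at 6W, and Zc3hav1, an antiviral zinc finger protein, was called in KO at 0.66 (edgeR adjusted p 0.0421). Toward lower levels, after Zfp488, they were 4930452G13Rik at -1.60, Fut11 at -0.38, Gm37788 at -1.90 and Tdg at -0.49, with edgeR adjusted p-values of 0.052 to 0.0611. Tdg, a DNA glycosylase that excises oxidised 5-methylcytosine, had 9.12, 8.88, 8.07 and 7.99 CPM at 6W and 5.92, 5.88, 6.26 and 6.12 CPM at 6M. The ages were apart for Tdg, as they were for Tet1, and in KO Tdg was at -0.34 with an edgeR adjusted p of 0.286.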

How the data were processed

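RNA of mouse hippocampus and prefrontal cortex was turned into stranded poly(A) libraries, per the labels' protocols. The submitters' processing notes name bcl2fastq 2.20.0.422, STAR 2.4.0, HTSeq and the build GRCm38. The values deposited are raw whole-number counts of reads per gene for 48 samples, and columns were matched to samples by title. Strand use and the treatment of reads that match several genes are not given in the sources used here, so shared and antisense sequence was measured as 31-base words of the GENCODE M21 transcripts, whose positions are printed.

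Counts of the 24 hippocampus libraries (6 groups, 18 residual degrees of freedom) were fitted with edgeR 4.0.16 in R 4.3.3 (filterByExpr, TMM, quasi-likelihood test), and p-values were adjusted by Benjamini-Hochberg over all tested genes. Prefrontal cortex was fitted alike, and the tissues together in 48 libraries. CPM values are TMM-normalised, and floors of 3 counts cover counting error only. DESeq2 1.42.0, other normalization, filters, sample sets, a replicate block and omitted libraries were alternatives, and the omission of both libraries numbered 1 and of the 3 libraries with choroid plexus RNA was chosen after seeing the data. The code was tested on simulated data: in the simulated WT step of 17369 genes it recovered 90% of changes of 1 log2 unit and 98% of changes of 2, with 6.47% false calls. The simulation drew counts around 1 mean per gene for all groups, without deviations of whole libraries, and changed only genes with a mean over 1 CPM. These rates therefore need not hold in the real step.

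No pair of libraries of an age agreed within sampling noise (chi-square per degree of freedom 16.2 to 163). Same-numbered libraries deviated together in KO (correlations across 9747 genes of 0.297 to 0.427 between 6W and 6M), and in WT not throughout (-0.0785 to 0.355). The KO values printed are from the fit without a block and ignore this pairing. The fit blocked by replicate number, with 89 KO calls, is given as an alternative. The members and gene lists were chosen with earlier results of these data known. Named are all genes called in the WT step, the called members and up to 4 of the most abundant tested members of each list described, the 5 genes with the smallest p in each direction that were not called, and Mpg. Gjc3, Adamts4 and Erbb3 are named because DESeq2 called them, so they too were chosen after their values were seen. Other genes are said to be chosen after their values were seen. Some listed genes are not reported here by name.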

Additional observations from a re-analysis of the deposited data

Results flagged for a closer look

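Of 118 sets of 4 values examined (levels of named genes, summed lists and library totals), 9 held 1 library far from the rest (chance gives about 5.9). At 6W, choroid plexus markers summed to 1273 CPM in replicate 4 (75.6 to 117 CPM in the others), and neocortical layer markers to 899 CPM in replicate 1 (1099 to 1135 CPM).

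At 6M, replicate 1 stood apart in 5 sums. They were precursor markers at 915.7 CPM (703.7 to 707.6 in the others), microglial markers at 697.8 CPM (498.5 to 517.8), hippocampal subfield markers at 948.2 CPM (1304 to 1367), blood markers at 302.7 CPM (135.7 to 160.4) and mitochondrially encoded genes at 232500 CPM (112500 to 124300). Inhibitory neuron markers summed to 1804 CPM in replicate 2 of 6M (1665 to 1675 in the others). The total count of replicate 3 of 6M was 37979957 (22347188 to 24466375).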

How the results depend on the processing

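The WT step, with 28 calls in the edgeR fit of 24 libraries, gave 26 calls with median-of-ratios size factors, 31 with a mean of at least 10 counts, 24 in the 12 WT libraries and 28 without mitochondrially encoded genes. It gave 341 without a filter on low counts (194 higher, 147 lower), 90 with DESeq2 (28 higher, 62 lower), 14 in the 16 libraries of 6W and 6M and 2 in the 8 libraries compared. It gave 9 to 50 with single libraries left out, 9 without both libraries numbered 1 and 4 without the 3 with choroid plexus RNA. Of the 28 genes, 21 were among the 24 calls of the 12 WT libraries and 13 among the 14 calls of the 16 libraries. The cause of these shifts was not tested. The KO step, with 80 calls, gave 339 without a filter, 124 with DESeq2, 35 in the 16 libraries and 38 to 85 with single libraries left out. The difference between WT and KO, with 0 calls, gave 166 without a filter and 0 to 1 with single libraries left out. The prefrontal step, with 7 calls, gave 23 without a filter and 2 to 7 with single libraries left out, and the difference between tissues, with 0 calls, gave 0 to 1. In KO, 9130213A22Rik was at -0.00845 in log2 units without replicate 1 of KO 6W (edgeR adjusted p 0.9998) and at up to 0.235 with other single libraries left out (replicate 3 of KO 6M).

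A block for the replicate number gave 55 calls in the WT step (all 28 among them), 89 in KO, 0 for the difference between genotypes, 3 in the prefrontal step, 0 for the difference between tissues and 11338 between P5 and 6W. In WT the numbers were not taken as pairs, since the correlation of same-numbered deviations between 6W and 6M was over 0.1 in 3 pairs of 4 (0.355, -0.0785, 0.332 and 0.149), and 2 of 4 libraries correlated best with their own number. Between WT and KO it was 0.67, 0.115, 0.368 and 0.207 at 6W and 0.283, -0.0139, 0.377 and 0.0226 at 6M. In KO the block changed the call of Ptpro and of none of the other 27 genes. Depth limits the genes near 1 CPM, where Kif20a rests on 5 to 22 counts a library.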
